A study of Mus musculus with 7 samples.

Results

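The ETS factors described here are 10 transcription factor genes that act downstream of ERK: Etv1, Etv4 and Etv5 of the PEA3 group, Ets1 and Ets2, the ternary complex factors Elk1, Elk3 and Elk4, and the repressors Erf and Etv3. They were taken by gene symbol, and all 10 were among the 52636 genes of the count table. RNA was sequenced from inner cell masses (ICMs) of mouse embryos of the genotype Sox2Cre;CRAFR26. These carry a tamoxifen-responsive form of the kinase cRAF, which activates ERK, and a Cre transgene named for the Sox2 driver. Embryonic stem cells with the construct were injected into morulas to make the mice, and libraries are labelled with 1 of 2 clones, clone 4 or clone 8. A further vehicle sample was dropped by the authors at quality control. Every embryo was flushed at embryonic day 2.5 and held in culture for 24 h with 250 nM PD173074, an FGF receptor inhibitor, so the vehicle group was under FGF receptor inhibition as well. The tamoxifen group (4 libraries, 2 per clone) received 250 nM 4-hydroxytamoxifen for 4 h. The vehicle group (3 libraries, 2 of clone 4 and 1 of clone 8) received ethanol for 4 h and carries the time label 0 h. A library used 2 ng of RNA from 10 pooled ICMs, after immunosurgery to take off the trophectoderm. The labels give the cells as E3.5 epiblast. They do not say whether pools shared litters, so p-values measure the spread between these pools only.

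ETS factors share a DNA-binding domain that recognises sites built around the bases GGAA. ERK reaches them in several ways: it phosphorylates ternary complex factors, which sit with the serum response factor SRF on promoters of immediate early genes; it phosphorylates Ets1 and Ets2, which raises their activity; and it sends the repressor Erf out of the nucleus. The PEA3 genes are themselves transcribed in response to FGF and ERK, in part through relief of repression by Capicua (Cic), and their proteins are degraded through the ubiquitin ligase Cop1. Most of this control acts on proteins, whereas the values here are transcript levels.

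Total counts ranged from 22981498 to 42294719 per library. All 10 naive epiblast markers, all 9 primitive endoderm markers and all 10 trophectoderm markers examined had counts in each library. Their summed levels were 1680 to 2060 CPM (counts relative to library size, with TMM scaling factors) in vehicle and 1730 to 2220 CPM in tamoxifen libraries for naive epiblast, 844 to 1150 and 884 to 1030 CPM for primitive endoderm, and 7750 to 10500 and 5910 to 9020 CPM for trophectoderm. Trophectoderm transcripts were therefore present throughout, although immunosurgery had been used to take that layer off. How much of it remained was not measured. The vehicle library clone8_1 stood apart in short transcripts: 643 protein-coding genes with a longest transcript under 1000 nt lay, at the median, at -1.26 (log2) relative to the middle library of each gene, and at -0.049 to 0.251 elsewhere. Transcripts of 2000 to under 4000 nt (5404 genes) lay at 0.024 in that library. The longest transcripts of the 10 ETS factors ranged from 2395 nt (Etv4) to 7263 nt (Etv3), so none of them is in the short class.

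Levels can be compared between genes only per length, for which counts were divided by the exon length of each gene and scaled to the same sum in each library (TPM). Each count of a short gene weighs more in that sum, so TPM also depends on the short transcripts of a library. In vehicle clone4_1, clone4_2 and clone8_1 the 10 factors summed to 75.4, 86.1 and 104 TPM, but to 132, 145 and 147 CPM. The part of the short transcripts in the TPM values of clone8_1 was not tested. In vehicle libraries Etv5 was by far the most abundant of the 10 factors, at 67.6 ± 16.0 TPM (SD, n = 3). It was followed by Erf (6.06 ± 2.77 TPM), Elk1 (4.70 ± 0.22 TPM), Etv3 (4.32 ± 1.12 TPM) and Ets2 (3.80 ± 1.01 TPM), each as mean ± SD over 3 libraries. The ranges of neighbours among these 4 genes overlapped, so their order was not resolved in vehicle libraries. Elk4 was lower, at 1.34 ± 0.19 TPM, and its range overlapped neither that of Ets2 above it nor that of Elk3 below it. Elk3 (0.527 ± 0.357 TPM) overlapped with Etv4 (0.204 ± 0.122 TPM), and Etv4 with Etv1 (0.0777 ± 0.0987 TPM). Etv1 also overlapped with Ets1, for which 5 of 7 libraries had no count. With 4 h of tamoxifen the order of the means was the same, but Erf (12.7 ± 4.61 TPM, SD, n = 4) lay above Elk1 (5.90 ± 1.42 TPM) without overlap. With the longest transcript as the length, Elk1 and Erf exchanged places in vehicle libraries and Elk3 and Etv4 in tamoxifen libraries.

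Etv5 alone made up 60.6% to 83.3% of the summed TPM of the 10 factors in any library, and 97.5% to 99.8% of that of the PEA3 group. Set among all 26 ETS genes examined, it ranked 4 in vehicle libraries. Above it were Elf3, an epithelial ETS factor, at 1090 ± 130 TPM, Spic at 386 ± 107 TPM and Gabpa, a regulator of mitochondrial and housekeeping genes, at 95.4 ± 24.5 TPM (SD, n = 3 each). In total 16 of the 26 ETS genes had a vehicle mean above 1 TPM, 6 of them among the 10 factors. Ets1 joined Erg, Fli1, Fev and Spib, which have roles in blood, vessels or neurons, as genes with at most 3 counts in each library.

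**Figure D1:**
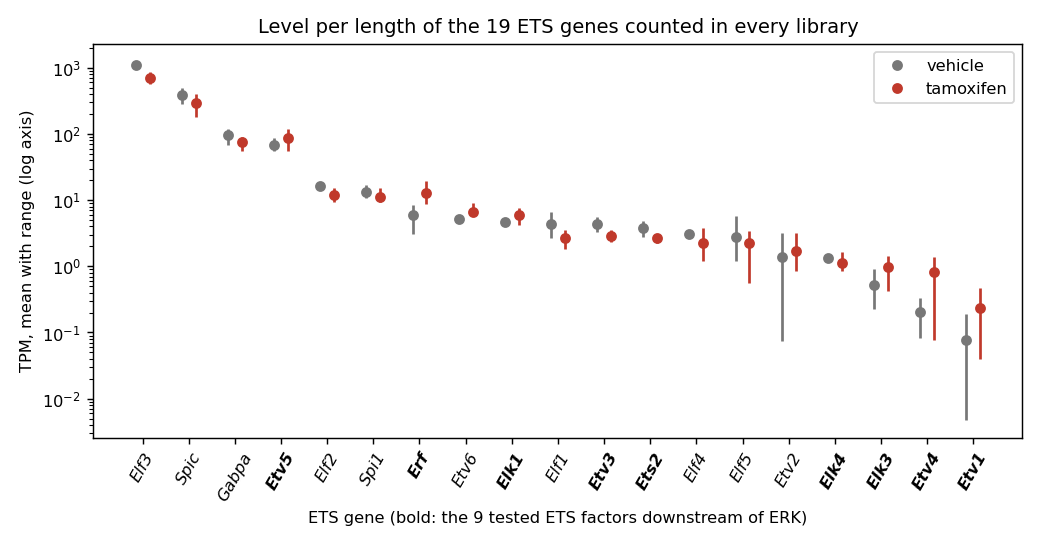
Level per length of the 19 ETS genes counted in every library, as TPM on a log axis; points are means of 3 vehicle (grey) or 4 tamoxifen (red) libraries, vertical lines run from the lowest to the highest library, and bold names mark the 9 tested ETS factors downstream of ERK. Etv5 stands above the other factors in bold, and Elf3, Spic and Gabpa stand above Etv5.

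The question of the comparison was which transcripts respond when ERK is switched on in the epiblast. Of the 10 factors, 9 passed the expression filter and Ets1 did not. With edgeR's quasi-likelihood test and Benjamini-Hochberg adjustment over 16248 genes, 0 of the 9 passed an adjusted p under 0.05 (adjusted p 0.794 to 0.944), and 0% of all tested genes did. At an unadjusted p under 0.05 there was 1 of the 9, Erf, against 5.97% of tested genes. With DESeq2 in place of edgeR, 4 genes were called, none of them among the factors. At an unadjusted p under 0.05 there were then 2 factors (Etv4 and Erf), against 7.5% of the genes given a p-value in that fit. Log2 fold changes were above 0 for 6 and below 0 for 3 of the 9 tested factors, with a median of 0.473. Over all tested genes 8408 were above and 7840 below 0, with a median of 0.019. Of the naive epiblast markers 8 were above and 2 below 0 (median 0.41), and of the primitive endoderm markers 6 and 3 (median 0.49). All 10 trophectoderm markers were below 0 (median -0.3). The part of these cell types in the changes of the factors was not tested. Groups without overlap, tamoxifen higher, were seen in 1 factor (Erf) and in 3.71% of tested genes; groups without overlap, tamoxifen lower, were seen in 0 factors and in 4.74% of tested genes. With 9 factors, a count of 1 is not read as a difference from these shares. In pooled tissue, fewer cells of a type and less RNA per cell cannot be told apart.

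**Figure D2:**
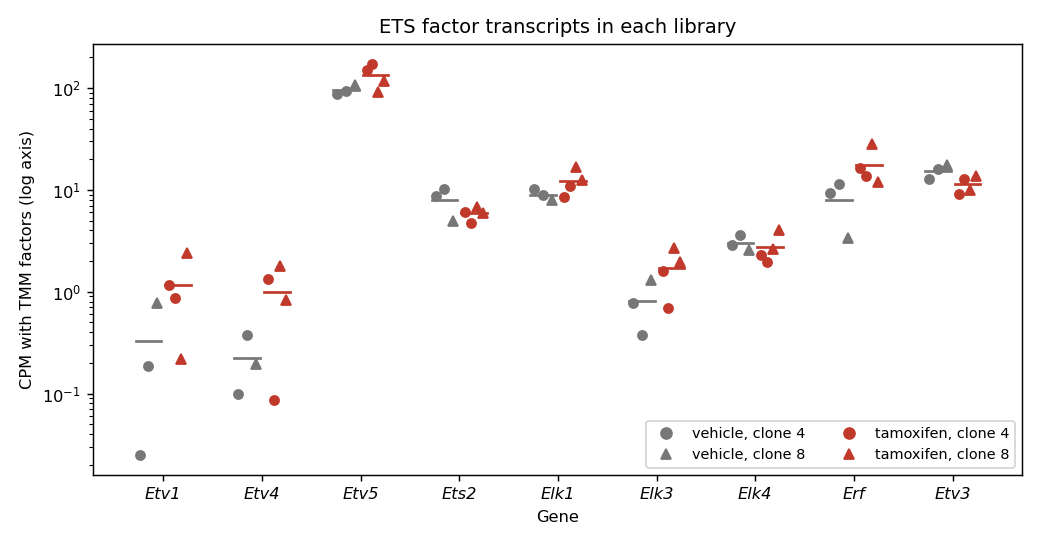
CPM with TMM factors, on a log axis, of the 9 tested ETS factors in each of 7 libraries; circles are clone 4, triangles clone 8, grey is vehicle, red is tamoxifen, and horizontal lines are group means. Groups are apart for Erf only, where vehicle clone8_1 is the lowest and tamoxifen clone8_1 the highest library.

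**Figure D3:**
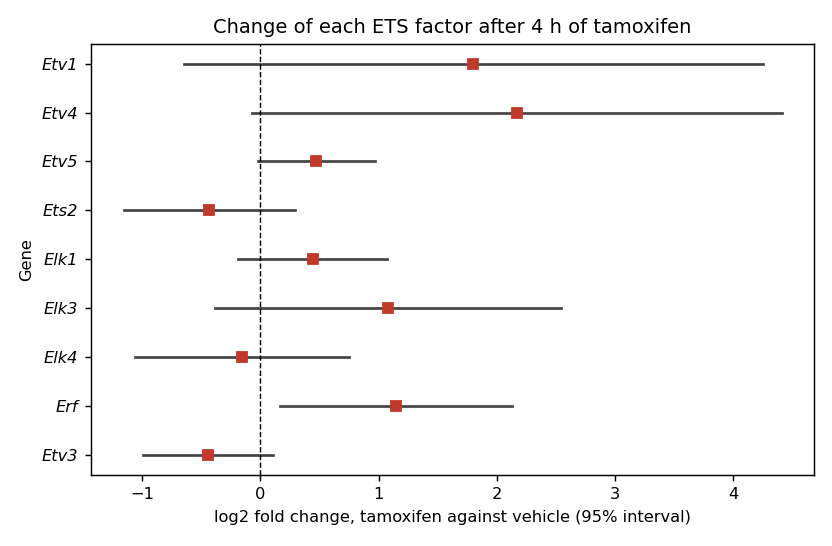
Log2 fold change of tamoxifen against vehicle with its 95% interval (edgeR) for the 9 tested ETS factors; the dashed line marks no change. The interval of Erf (0.16 to 2.13) is the only one that leaves out 0, without adjustment for the number of genes tested, and those of Etv1 and Etv4 are the widest.

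Among the PEA3 factors, which activate transcription and are common readouts of FGF signalling, Etv5 (chromosome 16, 22381309 to 22439719, minus strand, GRCm38) was at 87.4, 93.7 and 108 CPM in vehicle clone4_1, clone4_2 and clone8_1. In tamoxifen libraries it was at 152 CPM in clone4_1, 174 CPM in clone4_2, 92.5 CPM in clone8_1 and 118 CPM in clone8_2. All tamoxifen libraries but clone8_1 exceeded the vehicle range, and clone8_1 lay below vehicle clone4_2 and clone8_1, so the groups overlapped through it alone. The log2 fold change was 0.47 ± 0.22 (SE), with a 95% interval from -0.02 to 0.97 (unadjusted p = 0.0599, edgeR). Within clone 4 it was 0.83 ± 0.16 (SE; unadjusted p = 0.00110, adjusted p = 0.550, edgeR with Benjamini-Hochberg adjustment), with 2 libraries per condition. With 1 library left out in turn it ran from 0.31 (without tamoxifen clone4_2; unadjusted p = 0.197, edgeR) to 0.62 (without tamoxifen clone8_1; unadjusted p = 0.0105, edgeR).

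Etv4 (chromosome 11, 101769742 to 101785371, minus strand) was scarcely transcribed, with 4, 12 and 8 raw counts in the vehicle libraries in the same order. The tamoxifen libraries held 56, 2, 49 and 34 counts in clone4_1, clone4_2, clone8_1 and clone8_2. On the CPM scale 3 of 4 tamoxifen libraries (0.825 to 1.77 CPM) were above all vehicle libraries (0.0992 to 0.374 CPM), and tamoxifen clone4_2 was the lowest of all 7 at 0.0862 CPM. Its log2 fold change of 2.17 ± 1.01 (SE) had a 95% interval from -0.07 to 4.41 (unadjusted p = 0.0567, edgeR). Without tamoxifen clone4_2 the change was 2.53 ± 0.84 (SE; unadjusted p = 0.0148, edgeR; adjusted p = 0.875 by Benjamini-Hochberg), and over all fits with 1 library left out it ran from 1.76 to 2.74.

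Etv1 (chromosome 12, 38779380 to 38870484, plus strand) varied most among the tested factors, with a CPM 96.9 times higher in its highest than in its lowest library. Vehicle clone4_1, clone4_2 and clone8_1 held 1, 6 and 32 raw counts of it. There were 49, 20, 6 and 99 in tamoxifen clone4_1, clone4_2, clone8_1 and clone8_2. Both clone 4 tamoxifen values (0.862 and 1.16 CPM) lay above those of clone 4 vehicle libraries (0.0248 and 0.187 CPM), whereas in clone 8 the vehicle value of 0.780 CPM lay between the tamoxifen values of 0.217 and 2.40 CPM. The interaction of clone and condition was not called for Etv1 (unadjusted p = 0.231, adjusted p = 0.598, edgeR). The log2 fold change was 1.80 ± 1.10 (SE; 95% interval -0.65 to 4.25; unadjusted p = 0.132, edgeR). Leaving out 1 library gave 1.17 (without tamoxifen clone8_2; unadjusted p = 0.348, edgeR) to 3.45 (without vehicle clone8_1; unadjusted p = 0.0203, edgeR). The intervals of Etv1 and Etv4 hold both no change and changes of over 4 on the log2 scale.

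Ets1 and Ets2 are activators that ERK phosphorylates at a conserved threonine. Ets1 (chromosome 9, 32636221 to 32757820, plus strand) had 1 count in vehicle clone8_1, 2 in tamoxifen clone8_2 and 0 in the other 5 libraries. A count of 0 allows up to 3 counts, which is 0.0709 to 0.131 CPM at these depths and covers counting error only, so Ets1 was at or under the limit in both groups and no fold is given.

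Ets2 (chromosome 16, 95702075 to 95721051, plus strand), a factor also known for its role in trophoblast, was at 8.66, 10.2 and 4.92 CPM in vehicle clone4_1, clone4_2 and clone8_1. In tamoxifen clone4_1, clone4_2, clone8_1 and clone8_2 it was at 6.04, 4.70, 6.83 and 5.90 CPM. Vehicle clone8_1 was within the tamoxifen range and the other 2 vehicle libraries lay above it. The log2 fold change was -0.43 ± 0.33 (SE; 95% interval -1.16 to 0.29; unadjusted p = 0.214, edgeR). Without vehicle clone8_1 it was -0.69 ± 0.30 (SE; unadjusted p = 0.0429, edgeR; adjusted p = 0.746 by Benjamini-Hochberg), and without vehicle clone4_2 it was -0.21 (unadjusted p = 0.568, edgeR). All 10 trophectoderm markers also had log2 fold changes below 0. Of these markers 0 had an adjusted p under 0.05 and 2 an unadjusted p under 0.05 (edgeR), beside 0% and 5.97% of all tested genes. The part of these markers in the value of Ets2 was not tested.

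The ternary complex factors bind DNA together with SRF. Elk1 (chromosome X, 20933395 to 20950608, minus strand) was the most abundant of them per length. In vehicle libraries it was at 10.1, 8.81 and 7.99 CPM in clone4_1, clone4_2 and clone8_1. In tamoxifen libraries it was at 8.50 and 10.9 CPM in clone 4, and at 16.6 and 12.6 CPM in clone8_1 and clone8_2. Only the clone 8 tamoxifen libraries and clone4_2 exceeded the vehicle range. Its log2 fold change was 0.44 ± 0.28 (SE; 95% interval -0.19 to 1.07; unadjusted p = 0.151, edgeR). Within clone 4 the change was 0.03, and with 1 library left out it was 0.26 to 0.56.

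Elk3, known as a factor that represses until ERK phosphorylates it, lies on chromosome 10 (93247414 to 93311135, minus strand). It was at 0.769, 0.374 and 1.29 CPM in vehicle clone4_1, clone4_2 and clone8_1. In tamoxifen clone4_1, clone4_2, clone8_1 and clone8_2 it was at 1.59, 0.690, 2.67 and 1.94 CPM. The groups overlapped through tamoxifen clone4_2 alone, as for Etv4. The log2 fold change was 1.08 ± 0.66 (SE; 95% interval -0.38 to 2.54; unadjusted p = 0.131, edgeR), and 0.74 to 1.57 with 1 library left out.

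Elk4 (chromosome 1, 132007607 to 132032612, plus strand), also called SAP-1, was at 2.90, 3.64 and 2.56 CPM in the vehicle libraries in that order, and at 2.27, 1.98, 2.60 and 4.03 CPM in the tamoxifen libraries. The highest value of all was a tamoxifen library and so was the lowest. Its log2 fold change was -0.15 ± 0.41 (SE; 95% interval -1.06 to 0.75; unadjusted p = 0.713, edgeR), and -0.405 to -0.004 with 1 library left out. Exons of Elk1 overlap those of Uxt on the same strand by 76 bp, those of Elk3 overlap Cdk17 on the other strand by 316 bp, and those of Elk4 overlap Gm29103 by 104 bp and Mfsd4a by 84 bp. How reads of these stretches were assigned is not given in the sources used here.

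The repressors Erf and Etv3 had changes of opposite sign, and the difference between them was not tested. Erf binds ETS sites as a repressor while ERK is inactive and leaves the nucleus once ERK phosphorylates it. Erf (chromosome 7, 25242561 to 25250761, minus strand) was at 9.30, 11.3 and 3.39 CPM in vehicle clone4_1, clone4_2 and clone8_1. In tamoxifen clone4_1, clone4_2, clone8_1 and clone8_2 it was at 16.5, 13.8, 28.3 and 12.0 CPM. Every tamoxifen value exceeded every vehicle value, with 12.0 CPM next to 11.3 CPM at the border. The log2 fold change was 1.15 ± 0.44 (SE; 95% interval 0.16 to 2.13; unadjusted p = 0.0264, adjusted p = 0.794, edgeR with Benjamini-Hochberg adjustment). The libraries numbered clone8_1 are the extremes on both sides: without both the change was 0.45 ± 0.26 (SE; unadjusted p = 0.122, edgeR). With a single library left out it was 0.77 (vehicle clone8_1) to 1.47 (vehicle clone4_2).

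Etv3 (chromosome 3, 87525407 to 87540156, plus strand), a repressor related to Erf, was at 12.9, 16.0 and 17.4 CPM in vehicle clone4_1, clone4_2 and clone8_1. In tamoxifen clone4_1, clone4_2, clone8_1 and clone8_2 it was at 9.16, 12.8, 9.93 and 13.6 CPM. The groups overlapped only in that tamoxifen clone8_2 exceeded vehicle clone4_1. Its log2 fold change was -0.44 ± 0.25 (SE; 95% interval -0.99 to 0.11; unadjusted p = 0.105, edgeR). The ratio of Erf to Etv3 in CPM was 0.721, 0.706 and 0.195 in the vehicle libraries and 1.80, 1.08, 2.85 and 0.882 in the tamoxifen libraries. This ratio was formed after the values were seen and has no test; every tamoxifen value is above every vehicle value.

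Promoter windows from 250 bases before to 50 after a start site were found in RefSeq (GRCm38.p6) for 8 of the 10 factors, in 12 windows, and were searched on both strands. Etv4 and Ets1 had no window and were not searched. The ETS site CCGGAAGT occurs in 1 of the 12, an Elk4 window, and in 3.89% of the 32851 windows searched, which do not cover every chromosome. Its core GGAA occurs in 11 of the 12 and in 96.0% of all windows searched, and the ETS site contains that core. The Capicua octamers TGAATGAA or TGAATGGA (2.47% of all windows searched) and the CArG box of SRF (1.63%) occur in none of the 12. With 12 windows this is not read as a difference from these shares. The stretches printed here both lie before the start site, that of Elk4 shown as the only full ETS site, that of Erf because it was the factor whose groups did not overlap; capitals mark the match, on the strand of the gene. The Elk4 stretch is chr1:132007522-132007589, plus strand, and the Erf stretch, with GGAA read on the other strand as TTCC, is chr7:25250910-25250973, minus strand. No binding was measured, and a match describes the letters only.
Elk4: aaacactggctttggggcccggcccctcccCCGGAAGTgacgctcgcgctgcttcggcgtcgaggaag
Erf: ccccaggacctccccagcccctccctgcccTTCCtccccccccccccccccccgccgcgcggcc

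Because vehicle clone8_1 stood apart in short transcripts and clone 8 had 1 vehicle library, values were also taken without it. Where it is left out and clone 8 tamoxifen libraries are kept, all vehicle libraries are of clone 4. Clone and condition cannot be told apart in those fits. Without vehicle clone8_1, Etv1 (3.45 ± 1.24, SE), Etv5 (0.56 ± 0.24, SE) and Ets2 had an unadjusted p under 0.05 and Erf did not (0.77 ± 0.37, SE; unadjusted p = 0.0641, edgeR). These 3 of 9 factors stand beside 6.54% of all genes tested in that fit. Without both libraries numbered clone8_1 the groups were apart in 3 factors with tamoxifen higher (Etv1, Etv5, Erf) and in 1 with tamoxifen lower (Ets2). These counts stand beside 11.7% and 12% of all tested genes in these 5 libraries. Tamoxifen clone8_1 was not low in short transcripts (0.251). The groups of Etv5 had overlapped through tamoxifen clone8_1 alone, and those of Ets2 through vehicle clone8_1 alone. Those of Etv1 had overlapped only between these same libraries. The separation of Etv1, Etv5 and Ets2 here therefore follows from leaving these libraries out. Etv1, Etv5 and Ets2 had an unadjusted p under 0.05 there, as did 7.25% of all genes. In these libraries the value was 0.70 ± 0.18 (SE; unadjusted p = 0.00441, edgeR) for Etv5 and 3.81 ± 1.03 (SE; unadjusted p = 0.00561, edgeR) for Etv1. In clone 4 alone 2 factors (Etv1 and Etv5) and 7.87% of genes had an unadjusted p under 0.05. No factor passed an adjusted p under 0.05 in any of the 14 other fits, and the sign of each of the 9 tested factors was the same in all of them.

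**Figure D4:**
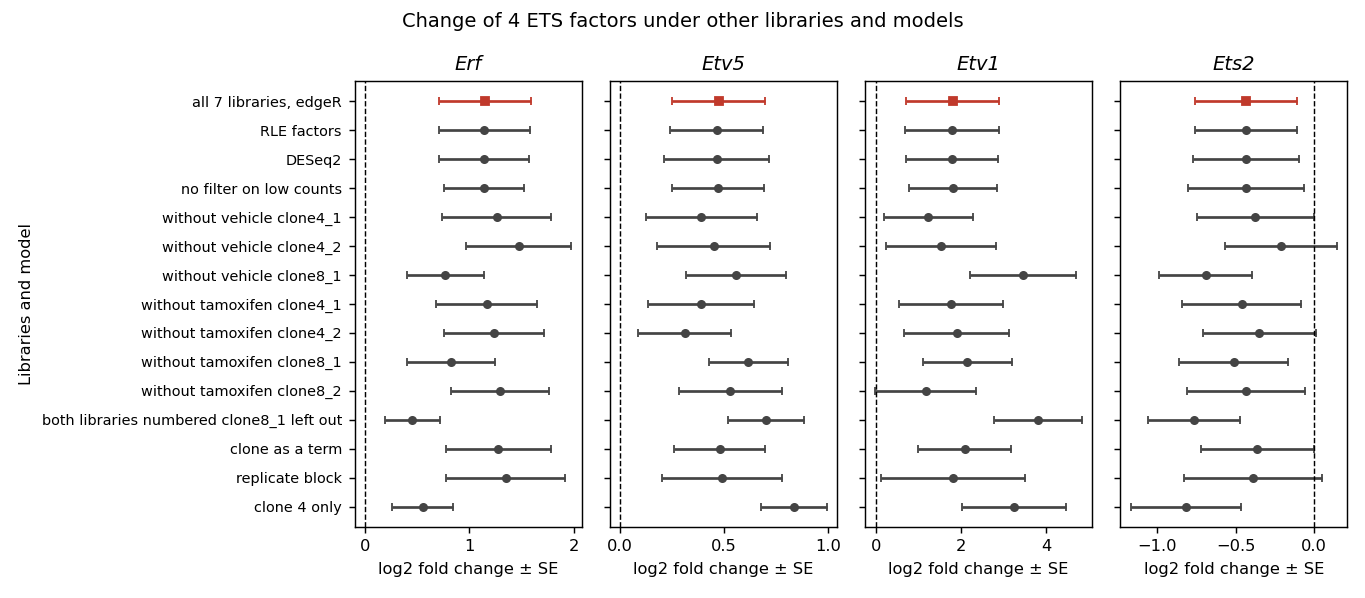
Log2 fold change ± SE of Erf, Etv5, Etv1 and Ets2 with all 7 libraries (red square) and under 14 other choices of libraries, scaling, filter, test or model terms (circles); the dashed line marks no change. Leaving out both libraries numbered clone8_1 lowers Erf to 0.45 and raises Etv5 to 0.70 and Etv1 to 3.81, and no value changes sign. The vehicle libraries left are then all of clone 4.

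Whether the clones differed was tested with the interaction of clone and condition, which rests on vehicle clone8_1 as the only vehicle library of clone 8. None of the 9 factors passed an adjusted p under 0.05 (0.217 to 0.970, edgeR, Benjamini-Hochberg), where 3.16% of tested genes did. The factors with the lowest interaction p were Etv5 and Erf. On the log2 scale the change of Etv5 was lower in clone 8 (interaction -0.88) and that of Erf was higher (interaction 2.01). They were picked by that p, and neither was called with edgeR. With DESeq2 the interaction of Erf was 1.99 (adjusted p = 0.0487), in a fit that called 7.28% of genes. Leaving out 1 clone 8 tamoxifen library sets 1 clone 8 library against 1, and these are assumed to vary like the clone 4 libraries. The interaction of Erf was then 1.27 without tamoxifen clone8_1 (adjusted p = 0.366, edgeR; 2.29% of genes called). Without tamoxifen clone8_2, which leaves the lowest and the highest Erf value of all 7 libraries as clone 8, it was 2.5 (adjusted p = 0.0423, edgeR; 4.14% of genes called).

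The genes around these factors gave a mixed picture, and none passed an adjusted p under 0.05. Of the 16 other ETS genes 10 were tested, 2 with a log2 fold change above 0 and 8 below, median -0.27. Elf3, which is expressed in trophectoderm, was at 842, 858 and 843 CPM in vehicle clone4_1, clone4_2 and clone8_1. In tamoxifen clone4_1, clone4_2, clone8_1 and clone8_2 it was at 555, 453, 608 and 728 CPM, with no overlap, a log2 fold change of -0.53 ± 0.18 (SE) and an unadjusted p of 0.0125 (edgeR). Elf2 was also lower in all tamoxifen libraries (-0.37 ± 0.19, SE; unadjusted p = 0.0816, edgeR) and Etv6, an ETS repressor, higher in all (0.49 ± 0.24, SE; unadjusted p = 0.0625, edgeR). Both were picked after their values were seen. Of all tested genes, 4.74% had groups without overlap with tamoxifen lower and 3.71% with tamoxifen higher. An unadjusted p under 0.05 was found in 5.97% of them (edgeR). The 10 factors took 5.16% to 5.23% of the summed TPM of all 26 ETS genes in vehicle and 7.50% to 11.4% in tamoxifen libraries, a share also chosen after its values were seen. Their own summed TPM overlapped between the groups (75.4 to 104 in vehicle, 91.7 to 141 in tamoxifen libraries). Their summed CPM did not overlap (132 to 147 in vehicle, 161 to 219 in tamoxifen libraries). The result for the sum thus depends on the scale, and neither sum was tested. The summed TPM of all 26 ETS genes was lower with tamoxifen without overlap (1450 to 1990 and 1040 to 1350). Elf3 alone took 61.8% to 67.6% of that sum in vehicle and 45.7% to 65.1% in tamoxifen libraries, and the part of the trophectoderm markers in this share was not tested.

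Of SRF and its cofactors, 3 of 4 were tested: Srf had a log2 fold change of 0.44 ± 0.44 (SE), and its cofactors Mrtfa and Mrtfb, which compete with ternary complex factors for SRF, had -0.29 ± 0.19 (SE) and -0.22 ± 0.36 (SE). Of 7 regulators of the PEA3 factors 6 were tested, 5 of them above 0 and 1 below. Cic, their repressor, had a log2 fold change of 0.57 ± 0.31 (SE), with 40.6 CPM in tamoxifen clone8_1 and 15.2 to 22.0 CPM in the other 6 libraries. The value was 0.12 ± 0.24 (SE) for Cop1 and, for Trib1, an adaptor of Cop1, -0.35 ± 0.18 (SE). Unadjusted p-values were above 0.05 for the tested genes of both lists (edgeR).

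All 9 ERK feedback targets were tested, 7 above and 2 below 0, with a median log2 fold change of 0.22. The 2 with an unadjusted p under 0.05 encode inhibitors of the pathway, Spry2 (0.86 ± 0.21, SE) and Spred1 (1.27 ± 0.54, SE). Spred1 was at 0.595 to 1.28 CPM in vehicle and 1.16 to 3.14 CPM in tamoxifen libraries. Of the 9 immediate early targets of SRF and ternary complex factors 8 were tested, 4 above and 4 below 0, median -0.02. Fos, the classic target of Elk1, was the only one with an unadjusted p under 0.05. It was lower with tamoxifen (-1.37 ± 0.36, SE), at 44.2 to 95.6 CPM in vehicle and 16.2 to 42.1 CPM in tamoxifen libraries. Of all tested genes 5.97% had an unadjusted p under 0.05 (edgeR). With 9 and 8 genes tested, the counts in these lists are not read as a difference from that share.

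The 3 genes whose log2 CPM followed Etv5 most closely over the 7 libraries, among 8052 genes with a mean of at least 10 CPM, were Slc37a2 (Pearson r = 0.978), Il6st (0.972), which encodes the gp130 receptor subunit, and Gemin2 (0.949). These are the highest of many correlations over few libraries and are given as a description.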

How the data were processed

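RNA-seq libraries of 7 pools of ICMs were compared, 3 with vehicle and 4 with tamoxifen, grouped by the treatment label. The authors deposited raw counts per Ensembl gene, 1 column per library and not normalised. The submitters' processing notes name bcl2fastq 2.19.1, STAR 2.5.3a and the build mm10; the counting program, annotation, strand setting and handling of duplicate reads are not given in the sources used here. Amplified low-input libraries without molecular identifiers do not count independent molecules.

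Symbols, coordinates and lengths came from GENCODE M21 (GRCm38), which matched 52489 of 52636 gene IDs. edgeR 4.0.16 in R 4.3.3 was run on all genes with TMM factors, its expression filter by group, the quasi-likelihood test on a model of condition alone, and Benjamini-Hochberg adjustment over the 16248 genes tested (threshold 0.05). SE is the log2 fold change over the square root of F, and log2 CPM used a prior count of 2. The alternatives were RLE factors, DESeq2 1.42.0, no filter, libraries left out, clone as a term, a replicate block and clone 4 alone. Same-numbered libraries did not deviate together (r = 0.008, 0.021 and -0.068 across genes). With so few libraries per group these values cannot exclude that same-numbered libraries shared litters or a batch. The main model left them unpaired, and the replicate block pairs them by number.

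The rule for named genes took the 10 factors, Srf, Mrtfa, Mrtfb, Cic, Cop1, Trib1, pathway genes with an unadjusted p under 0.05 and the 3 genes most like Etv5. Spic, Gabpa, Erg, Fli1, Fev and Spib (levels) and Elf2 and Etv6 (changes) lie outside it and were chosen after their values were seen. The factors and lists were chosen with earlier results of these data known.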

Additional observations from a re-analysis of the deposited data

How the results depend on the processing

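Across all genes, 0 passed an adjusted p under 0.05 with edgeR, 4 with DESeq2 and 2 without both libraries numbered clone8_1; the causes were not tested. Genes with an unadjusted p under 0.05 numbered 970, 1803 of 28364 without a filter on low counts (more genes tested), and 608 to 1516 when 1 library was left out, lowest without tamoxifen clone4_1 and highest without vehicle clone4_1. Of the ETS factors, 0 passed an adjusted p under 0.05 in any of these fits (edgeR or DESeq2). At an unadjusted p under 0.05 there was 1 factor (Erf; 5.97% of genes), 2 with DESeq2 (Etv4, Erf; 7.5%), 3 without a filter (Etv4, Etv5, Erf; 6.36%), 3 without both libraries numbered clone8_1 (Etv1, Etv5, Ets2; 7.25%) and 2 in clone 4 alone (Etv1, Etv5; 7.87%). Leaving out 1 library gave 1 to 3 factors, beside 3.91% to 8.97% of genes. Erf was not among them without vehicle clone8_1 or without tamoxifen clone8_1 (0.82 ± 0.42, SE; unadjusted p = 0.0836, edgeR). With the replicate block, 0 factors had an unadjusted p under 0.05 (Erf 1.35 ± 0.57, SE; unadjusted p = 0.0507, edgeR) and 721 of the tested genes (4.44%) did. Factors with groups apart numbered 1, and 4 without both libraries numbered clone8_1; TPM or RLE factors gave 1. The clone interaction was called in 514 genes, in 1023 with DESeq2, and in 372 to 672 when 1 clone 8 tamoxifen library was left out; among the factors it was called in 0, in 1 (Erf) with DESeq2, and in 0 to 1 with a library left out.

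Depth limits Ets1 most, with 0 to 2 counts in each library. Etv1 and Etv4 had 10 or fewer counts in at least 1 library. Their 95% intervals span over 4 log2 units, and their counts (1 to 99 and 2 to 56) spread beyond counting error, so the width was not traced to depth.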
